A study of Homo sapiens with 6 samples.

Results

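The 9 genes described here encode transcription factors that steer blood precursors into the monocyte and granulocyte lineages. They are SPI1, CEBPA, CEBPB, CEBPD, IRF8, KLF4, GFI1, RUNX1 and RUNX2, and they were chosen by gene name. All 9 names were found among the 20263 genes of the expression table, and all 9 passed the filter on low counts. Messenger RNA came from THP-1 cells, an established monocytic line from an acute myeloid leukaemia. A hairpin against GOT1, the cytosolic aspartate aminotransferase, was present in 3 libraries (shGOT1, genotype GOT1 knockdown), and 3 carried a control hairpin (shNC, genotype wt). The labels used here give 1 GOT1 hairpin, no rescue, no time after delivery, and no word on whether each line was a pool or a clone, so other effects of the hairpin and of the line cannot be told apart from the loss of GOT1. They call the libraries biological replicates without naming separate cultures, and p-values therefore reflect only how much these libraries varied, which may be technical.

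These factors work as a network with opposed arms. SPI1 encodes PU.1, an ETS protein that opens chromatin at myeloid genes and whose dose sets macrophage against neutrophil fate. The C/EBP proteins are basic leucine zipper factors. C/EBPα is needed for granulocyte and monocyte precursors, C/EBPβ takes over in emergency granulopoiesis and in macrophage activation, and C/EBPδ belongs to the inflammatory response. IRF8 pairs with PU.1 and drives monocyte and dendritic cell fate, and in mice KLF4 lies downstream of IRF8 in that pathway. GFI1 is a zinc finger repressor that favours neutrophils over monocytes by recruiting the demethylase KDM1A. RUNX1 and RUNX2 are DNA-binding partners of CBFB, and RUNX1 is needed for blood stem cells to arise.

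The library totals ran from 26226977 to 39144890 counts. The targeted gene followed its label. GOT1 had 3.27, 2.87 and 3.33 TPM (a level scaled to transcript length and depth) in shGOT1 and 15.3, 16.7 and 16.3 TPM in shNC. In counts, by edgeR, it was 5.45-fold lower in shGOT1. The line was read against 15 monocyte markers, and all 15 were detected above 1 TPM in at least 1 library. Detection at this level does not set monocytic apart from granulocytic cells, whose markers were also expressed. Of the 15 monocyte markers, 11 were lower in shGOT1, 2 were higher and 2 did not pass. Their summed level was 2042 to 2079 TPM in shGOT1 and 4844 to 5048 TPM in shNC. Tested granulocyte markers mostly moved the other way. Of 15 listed 12 were tested, with 11 higher and 1 lower, and 4 of the 15 had under 1 TPM in every library. The summed level of the 15 was 8940 to 9257 TPM in shGOT1 against 4385 to 4490 TPM in shNC. Of 15 lymphocyte markers 6 were tested, of which 5 were higher, none was lower and 1 did not pass (median 0.84). TRAC, CD79A and CD79B were among the higher ones, and the summed level was 145 to 150 TPM in shGOT1 and 110 to 120 TPM in shNC, while CD3E, MS4A1 and CD8A had under 1 TPM everywhere. Of 12 epithelial and fibroblast markers 4 were tested, with 3 higher (KRT8 among them) and 1 lower, at a summed 8.07 to 8.44 against 4.99 to 5.27 TPM, and EPCAM and CDH1 were listed at 0. Of 14 erythroid and megakaryocyte markers 6 were tested, with 1 higher and 5 not passing, at a summed 39.1 to 40.3 against 35.8 to 42.4 TPM, and ALAS2 was under 1 TPM. Among tested markers, the share called was 86.7% for monocyte, 100% for granulocyte and 83.3% for lymphocyte markers. It was 100% for epithelial and fibroblast markers and 16.7% for erythroid and megakaryocyte markers. Over all tested genes it was 44.6%. Fewer cells of a type and less RNA per cell cannot be told apart in such bulk samples, and the part of these marker shifts in the values of the 9 factors was not tested.

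The factors did not move as a block. In shGOT1 cells GFI1 and CEBPA were higher, KLF4, CEBPB, RUNX2 and SPI1 were lower, and CEBPD, IRF8 and RUNX1 did not pass the test. Of the 9 genes 6 passed (2 higher, 4 lower), where 44.6% of all 13735 tested genes did (21.9% higher, 22.8% lower). With so many genes called, a share of this size in 9 genes is not by itself a result about them, and the sizes are read below gene by gene. A call means an adjusted p (Benjamini-Hochberg over all tested genes) under 0.05 by the quasi-likelihood test of edgeR, run on counts, and fold changes are shGOT1 over shNC. Sizes ran from a difference of 1.12-fold for SPI1 to 2.21-fold for KLF4, with RUNX2 at 3.12-fold resting largely on 1 library. The TPM ranges were separate for 7 of the 9 genes (3 above, 4 below), against 55.2% of all tested genes (36.4% above, 18.8% below). A called difference of at least 1.5-fold was seen in 4 of the 9 (KLF4, CEBPB, GFI1 and RUNX2) and in 15.4% of all tested genes. The median log2 fold change of the 9 was -0.01 and that of all tested genes 0.00.

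**Figure D1:**
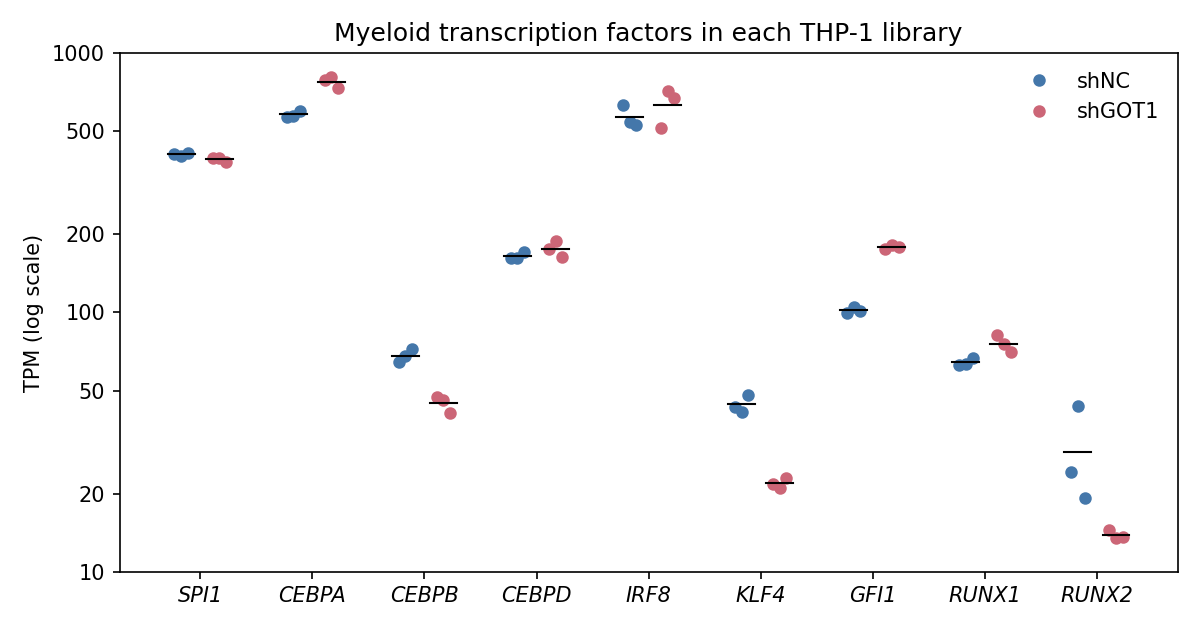
Level of each factor in TPM on a log axis, with 1 point per library (blue shNC, red shGOT1) and a bar at the mean of 3 libraries. The groups do not overlap for GFI1, KLF4, CEBPB, CEBPA, RUNX1, RUNX2 and SPI1, and for SPI1 they are close. For RUNX2, shNC replicate 2, at 43.5 TPM, stands above the other shNC libraries.

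The factors were also ordered by transcript level, which does not measure protein or activity. In shNC CEBPA (579.9 ± 17.4 TPM, SD, n = 3) and IRF8 (566 ± 55.3 TPM) led, and their ranges overlapped. SPI1 (407 ± 5.79 TPM), CEBPD (165 ± 5.04 TPM) and GFI1 (102 ± 2.87 TPM) followed in separate ranges. CEBPB (68.2 ± 3.74 TPM) overlapped RUNX1 (64.3 ± 2.12 TPM), and KLF4 (44.2 ± 3.62 TPM) overlapped RUNX2 (29.1 ± 12.8 TPM). In shGOT1 the upper 3 kept their places and CEBPA no longer overlapped IRF8. GFI1 reached the level of CEBPD (179 ± 3.29 against 176 ± 12.7 TPM), and CEBPB stood below RUNX1.

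SPI1 (ENSG00000066336, chr11:47354860-47378576, minus strand) encodes PU.1 (coordinates here and below are on GRCh38). It had 394, 395 and 379 TPM in shGOT1 and 409.5, 401 and 412 TPM in shNC. The groups were close but did not overlap. In counts SPI1 fell by 0.17 on the log2 scale (SE 0.025, edgeR adjusted p = 0.00264), or 1.12-fold lower. The size differed between scales. On log2(TPM + 0.1) the median gene stood 0.11 higher in shGOT1, and the value of SPI1 was -0.07 and did not pass (limma adjusted p = 0.11). After median-of-ratios scaling of TPM it passed again. Of 16 tested ETS family genes, SPI1 included, 4 fell, 3 rose and 9 did not pass (43.8% called, close to the 44.6% of all tested genes), with a median of -0.03. ETS2, an effector of RAS signalling, fell by 1.34 (SE 0.0393, edgeR adjusted p = 7.01e-06), from 76.9 ± 3.28 to 33.3 ± 4.14 TPM. ETS1 rose by 0.35 and ELK3 by 0.30, and ETV3 fell by 0.41.

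CEBPA (ENSG00000245848, chr19:33299934-33302564, minus strand) is a single-exon gene and was the highest of the 9. It had 787, 807 and 735 TPM in shGOT1 and 568, 572 and 599.9 TPM in shNC. Every shGOT1 library was above every shNC library. CEBPA rose by 0.32 on the log2 scale (SE 0.0423, edgeR adjusted p = 0.00166), or 1.25-fold. CEBPB (ENSG00000172216, chr20:50190734-50192689, plus strand) moved the opposite way. It had 47.2, 46.1 and 40.9 TPM in shGOT1 and 64.6, 67.9 and 72.1 TPM in shNC. The groups were far apart, and CEBPB fell by 0.71 (SE 0.071, edgeR adjusted p = 0.00051), that is 1.64-fold lower. CEBPD (ENSG00000221869, chr8:47736909-47739086, minus strand) had 175, 189 and 164 TPM in shGOT1 and 162, 163 and 171 TPM in shNC. The groups overlapped, and the estimate of -0.01 on the log2 scale (SE 0.0589, edgeR adjusted p = 0.869) changed sign with the scaling.

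The balance within the C/EBP trio therefore differed between the groups. Each library held 16.7, 17.5 and 18.0 CEBPA transcripts per CEBPB transcript in shGOT1, and 8.79, 8.42 and 8.32 in shNC. The log2 ratio was 1.03 higher in shGOT1. CEBPA made up 77.4% to 78.2% of the summed TPM of the trio in shGOT1 and 71.1% to 71.5% in shNC, while CEBPB made up 4.35% to 4.68% and 8.13% to 8.55%. The ratio of CEBPB to CEBPD was 0.269, 0.244 and 0.250 against 0.398, 0.417 and 0.421. Of 7 ratios between factors that were compared, 6 did not overlap between groups. Each of those 6 holds a factor that was also called by itself, so the ratios are not separate evidence. No share over other pairs of genes was computed. For those 6 a 2-sided exact permutation test gave p = 0.1, the smallest that 3 against 3 libraries allow (0.117 adjusted over the 7).

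CEBPE, the family member of late granulocyte and eosinophil maturation, had 25.3 ± 1.00 TPM in shGOT1 and 10.3 ± 0.442 TPM in shNC. It rose by 1.18 (SE 0.066, edgeR adjusted p = 5.55e-05), while CEBPG, a member without an activation domain, did not pass (0.04, edgeR adjusted p = 0.371). Across 15 tested C/EBP genes and bZIP partners, the trio included, 8 fell, 4 rose and 3 did not pass, with a median of -0.09. In this list 80% were called, against 44.6% of all tested genes. The stress partner DDIT3, which binds C/EBP proteins and blocks them from their usual sites, fell by 0.71. ATF3 fell by 1.10 and the clock-output gene DBP by 0.84, and BATF3 rose by 0.64.

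IRF8 (ENSG00000140968, chr16:85898803-85922609, plus strand) had 516, 711 and 672 TPM in shGOT1 and 629.5, 540.3 and 528 TPM in shNC. Libraries of both groups were mixed in rank. The estimate of 0.05 on the log2 scale did not pass (SE 0.0544, edgeR adjusted p = 0.525). KLF4 (ENSG00000136826, chr9:107484852-107490482, minus strand) had 21.8, 21.1 and 23.0 TPM in shGOT1 and 43.1, 41.3 and 48.3 TPM in shNC. All shGOT1 libraries were well below all shNC libraries. KLF4 fell by 1.14 on the log2 scale (SE 0.0398, edgeR adjusted p = 1.09e-05), or 2.21-fold lower. In each library IRF8 exceeded KLF4 by 23.6, 33.6 and 29.2 times in shGOT1 and by 14.6, 13.1 and 10.9 times in shNC, ranges that did not overlap.

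Their relatives moved in both directions. Of 14 tested KLF genes, KLF4 included, 6 fell, 3 rose and 5 did not pass, with a median of -0.22. KLF2, which restrains monocyte activation, rose by 0.82 (SE 0.107, edgeR adjusted p = 0.00146), from 9.79 ± 0.908 to 19.7 ± 1.77 TPM, and KLF6 fell by 0.47. Of 8 tested IRF genes, IRF8 included, 3 fell, 2 rose and 3 did not pass. Calls made up 64.3% of the KLF list and 62.5% of the IRF list, against 44.6% of all tested genes. IRF5, a factor of inflammatory macrophages, fell by 0.56 from 130 ± 2.22 to 94.3 ± 4.01 TPM, and the interferon amplifier IRF7 rose by 0.41 from 65.2 ± 1.44 to 94.3 ± 4.14 TPM.

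GFI1 (ENSG00000162676, chr1:92474762-92486876, minus strand) showed the clearest rise of the 9. It had 175, 182 and 179 TPM in shGOT1 and 99.4, 105 and 101 TPM in shNC. The libraries of each group lay close together and the groups were far apart. GFI1 rose by 0.71 (SE 0.0323, edgeR adjusted p = 2.55e-05), or 1.63-fold. Per SPI1 transcript the shGOT1 libraries held 0.445, 0.461 and 0.473 GFI1 transcripts, and the shNC libraries 0.243, 0.262 and 0.245. GFI1B, the erythroid and megakaryocytic paralog, was under 1 TPM in every library and was not tested.

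Most partners through which GFI1 represses genes did not rise with it. Of 10 tested genes in the list of GFI1 and its cofactors 5 fell, 2 rose and 3 did not pass. That is 70% called, against 44.6% of all tested genes. The 2 that rose were GFI1 itself and the deacetylase HDAC2 (0.30), whose TPM groups overlapped. ZBTB17, which encodes MIZ-1, fell by 1.12 (SE 0.0635, edgeR adjusted p = 5.89e-05), from 39.1 ± 0.97 to 18.6 ± 1.28 TPM. HDAC1 fell by 0.61 and the demethylase KDM1A by 0.60, and the corepressor RCOR1 fell by 0.41. ZBTB17, HDAC1 and KDM1A all lie on chromosome 1, at 15941869, 32292086 and 23019448. The 20 tested genes nearest to each had medians of -0.75, -0.56 and -0.86, all lower, and the part of the surroundings in these falls was not tested. RCOR1, on chromosome 14, had a neighbourhood median of 0.10. Of 17 tested genes in a list of GFI1-repressed genes, which holds GFI1, SPI1 and IRF8 as well, 6 rose, 4 fell and 7 did not pass (median 0.05). In that list 58.8% were called. ID1 rose by 1.23, EGR1 by 0.85 and E2F5 by 0.78, while CSF1R fell by 0.85 and CDKN1B by 0.31.

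The 3 stretches printed here are the 250 bases upstream of a RefSeq start (GRCh38.p14) of GFI1, CEBPB and KLF4, shown because these genes differed more than 1.5-fold with little spread and the stretches touch no annotated exon. The second GFI1 start of 3 was taken for its matches, after they were seen; the stretches at the other two GFI1 starts held 1 GC box each and no other match. RefSeq entries were matched for 7 of the 9 genes; SPI1 and CEBPD were not. The GFI1 and KLF4 stretches lie inside the gene coordinates given above, upstream of a start within them, and the CEBPB stretch lies outside its gene coordinates. Each stretch is given 5′ to 3′ on the gene's strand. Capitals mark matches on either strand to GGAAGT (ETS core), TGTGGT (RUNX), TTGCNNAA (C/EBP), the interferon response repeat bound by IRF proteins, AAATCA (GFI1) or GGGCGG (the GC box read by SP and KLF proteins), which do not overlap here.
GFI1, chr1:92486100-92486349, minus strand: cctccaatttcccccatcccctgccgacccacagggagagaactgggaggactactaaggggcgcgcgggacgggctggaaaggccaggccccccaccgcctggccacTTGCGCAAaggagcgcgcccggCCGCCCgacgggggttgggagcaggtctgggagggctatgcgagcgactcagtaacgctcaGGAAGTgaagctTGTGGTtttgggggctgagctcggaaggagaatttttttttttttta
CEBPB, chr20:50190333-50190582, plus strand: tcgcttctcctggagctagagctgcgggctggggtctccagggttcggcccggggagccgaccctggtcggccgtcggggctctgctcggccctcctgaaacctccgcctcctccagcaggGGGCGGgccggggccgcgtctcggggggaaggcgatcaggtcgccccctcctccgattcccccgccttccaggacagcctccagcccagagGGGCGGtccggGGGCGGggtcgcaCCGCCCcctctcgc
KLF4, chr9:107489770-107490019, minus strand: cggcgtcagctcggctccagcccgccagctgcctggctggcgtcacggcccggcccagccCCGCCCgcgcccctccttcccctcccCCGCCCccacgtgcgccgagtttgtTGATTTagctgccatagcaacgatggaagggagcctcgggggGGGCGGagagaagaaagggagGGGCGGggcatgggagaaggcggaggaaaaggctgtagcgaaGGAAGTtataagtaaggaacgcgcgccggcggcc

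The GFI1 stretch held a C/EBP match with the full palindrome TTGCGCAA, which begins 142 bases before the start, an ETS match at 59, a RUNX match at 47 and a GC box at 120. Of 35116 human promoter stretches of this length, 9.05% held the C/EBP letters, 19.5% the ETS core, 11% the RUNX letters and 42.6% the GC box. The KLF4 stretch held 4 GC boxes, an ETS core at 34 and the GFI1 letters at 139, which 11.6% of promoters held. The CEBPB stretch held 4 GC boxes and none of the other letters. The IRF repeat, in 3.02% of promoters, was in none of the 3. At the first RUNX2 start, whose stretch overlaps an annotated exon and is not printed, the RUNX letters occurred at 191 and 87 bases upstream and the C/EBP letters at 55. A match of letters describes the sequence and does not show binding.

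RUNX1 (ENSG00000159216, chr21:34787801-36004667, minus strand) had 81.7, 75.8 and 70.3 TPM in shGOT1 and 62.8, 63.5 and 66.8 TPM in shNC. TPM of the groups did not overlap, yet the counts scaled to library size (CPM) did. In counts RUNX1 stood 0.14 higher on the log2 scale and did not pass (SE 0.0831, edgeR adjusted p = 0.233), whereas on log2(TPM + 1) it passed with 0.23 (limma adjusted p = 0.0268). After median-of-ratios scaling of TPM it did not pass (limma adjusted p = 0.146).

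RUNX2 (ENSG00000124813, chr6:45328157-45664349, plus strand) had 14.5, 13.6 and 13.6 TPM in shGOT1 and 24.3, 43.5 and 19.3 TPM in shNC. All shNC libraries were above all shGOT1 libraries, and shNC replicate 2 stood apart from the other shNC libraries. Its counts were 525, 624 and 753 in shGOT1 and 911, 3184 and 824 in shNC. RUNX2 fell by 1.64 (SE 0.532, edgeR adjusted p = 0.0474), a call close to the threshold. Without shNC replicate 2 it fell by 0.75 with a much smaller error (SE 0.0957, edgeR adjusted p = 0.00359). Leaving out any 1 shGOT1 library ended the call (adjusted p from 0.114 to 0.118) without moving the estimate.

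**Figure D2:**
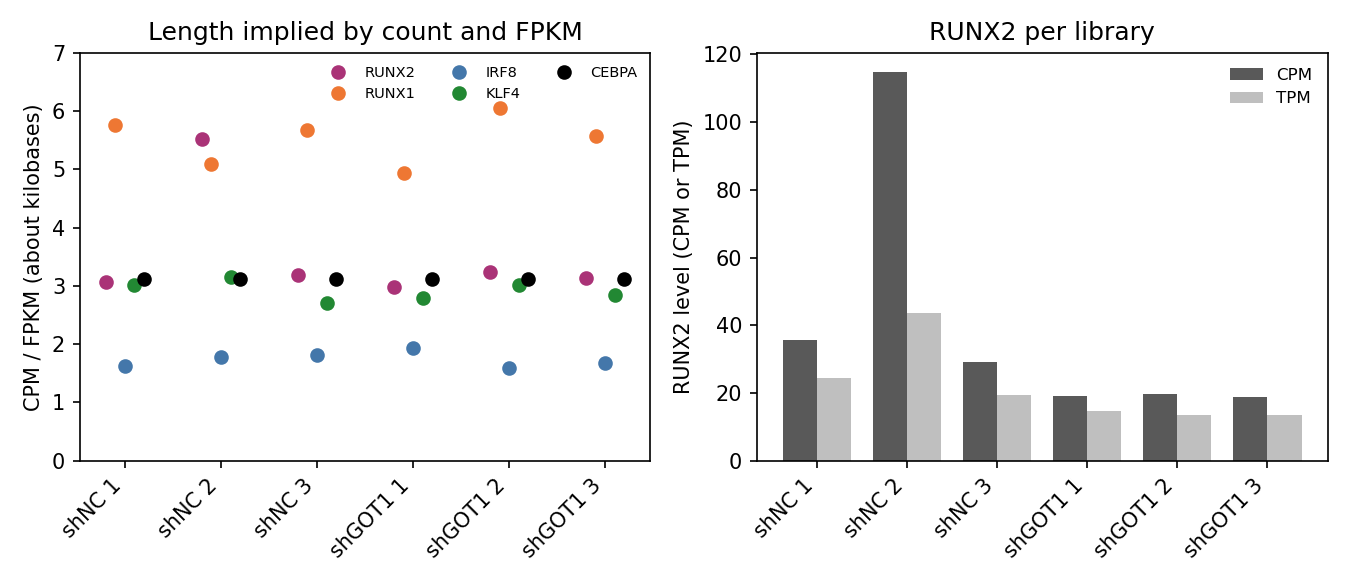
Left, CPM on unadjusted library totals divided by FPKM, for RUNX2, RUNX1, IRF8, KLF4 and CEBPA in each library. This ratio tracks the transcript length the authors' quantification used, in about kilobases. Right, RUNX2 in TMM-adjusted CPM and in TPM per library. The values of shNC replicate 2 are 115 CPM and 43.5 TPM.

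The library that set RUNX2 apart also differed in the length behind the value. CPM on unadjusted library totals, divided by FPKM, gives the transcript length used in quantification, up to a factor shared by all genes. For RUNX2 it was 5.52 in shNC replicate 2 and 2.98 to 3.24 in the other 5 libraries. The ratio of highest to lowest, 1.85, exceeded that of 97.4% of the 11542 tested genes with at least 50 counts in every library. For the single-exon genes CEBPA, CEBPB and CEBPD and for GFI1 this ratio was 1.00 to 1.01, for SPI1 1.02, and for KLF4, IRF8 and RUNX1 it was 1.16, 1.22 and 1.22. GENCODE lists 8 coding transcripts of RUNX2 and 9 each of RUNX1 and IRF8, and 1 of each of the 3 C/EBP genes. The part of transcript assignment in the RUNX1, RUNX2 and IRF8 values was not tested. RUNX2 also overlaps SUPT3H on the other strand (edgeR adjusted p = 0.166), and the sources used here do not say whether counting used the strand.

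The third family member, RUNX3, was as uneven. It had 4.65 to 19.3 TPM in shGOT1 and 6.48 to 32.0 TPM in shNC, highest in shNC replicate 2, and it did not pass (-0.63, SE 0.717, edgeR adjusted p = 0.514). It lies on chromosome 1 at 24899511, where the 20 nearest tested genes had a median of -0.76. CBFB, the shared partner that stabilises RUNX proteins on DNA, stood at 70.5 ± 4.59 against 67.9 ± 1.80 TPM (-0.10, edgeR adjusted p = 0.361). Of 11 tested RUNX genes and cofactors, RUNX1 and RUNX2 included, 3 fell, 1 rose and 7 did not pass (36.4% called), with a median of -0.27, or -0.12 without shNC replicate 2. CBFA2T3, a corepressor of the ETO family, rose by 0.40, and HIPK2 fell by 0.48 and TLE4 by 0.38. RUNX1 exceeded RUNX2 by 5.62, 5.59 and 5.16 times in the shGOT1 libraries, and by 2.58, 1.46 and 3.46 times in the shNC libraries.

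**Figure D3:**
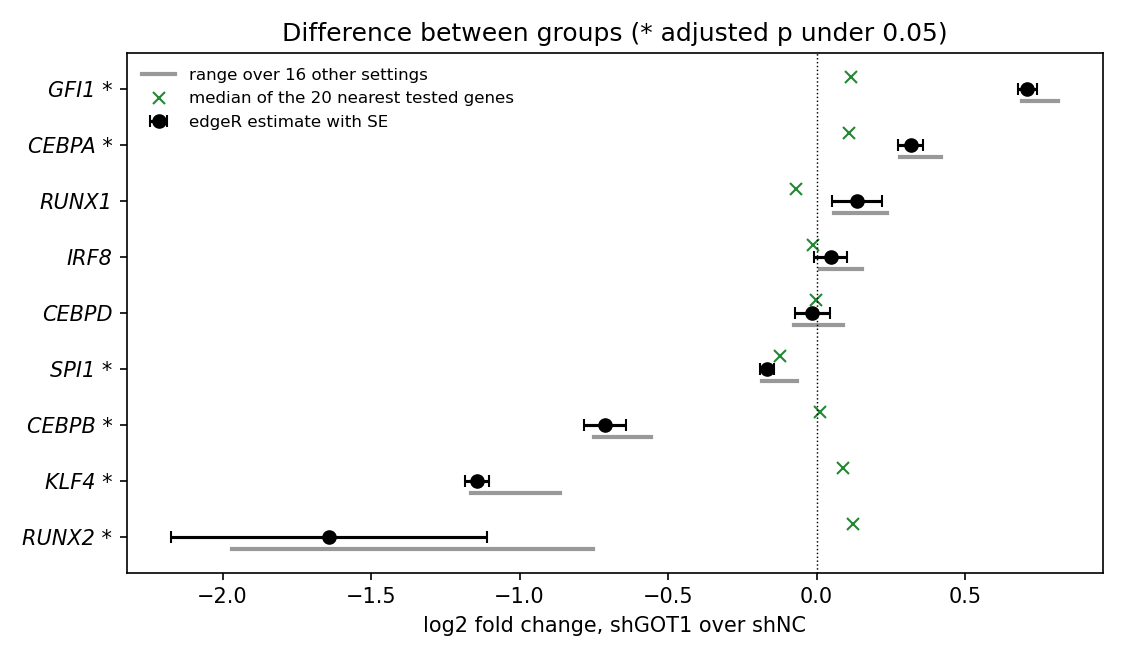
Log2 fold change of each factor (points, with the standard error as bars), its range over 16 other settings (grey lines) and the median of the 20 nearest tested genes (crosses). RUNX2, KLF4, CEBPB and GFI1 lie far from the median of their neighbours, and SPI1 lies close to it. CEBPB and GFI1 are still within the range of their neighbours, which is not drawn.

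Because of such regions on chromosome 1, each factor was set beside its neighbours. The 20 nearest tested genes had medians from -0.12 (around SPI1) to 0.12 (around RUNX2). KLF4 was lower than each of its 20 neighbours, whose values ran from -0.60 to 0.77. RUNX2 likewise lay below all of its neighbours, which ran from -0.33 to 1.04. The value of SPI1, -0.17, was close to its neighbourhood median of -0.12. CEBPA (0.32) and GFI1 (0.71) were within the range of their neighbours and above the medians of 0.11 and 0.12. CEBPB (-0.71) was also within the range of its neighbours, from -1.37 to 2.12, and below their median of 0.01.

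Other factors of the myeloid lineages were read for comparison. Of 30 tested monocyte and macrophage factors outside the 9, 16 fell, 4 rose and 10 did not pass (median -0.26). The macrophage factor MAF had 2.57 to 2.88 TPM in shGOT1 and 18.7 to 23.3 TPM in shNC, and it fell by 2.98 (SE 0.0825, edgeR adjusted p = 5.90e-06). BCL6 fell by 0.82 and BACH1 by 0.81. EGR1 rose by 0.85 and EGR3 by 2.38. Of 10 tested granulocyte, eosinophil and mast cell factors 3 rose (ID1, GATA2 and CEBPE), 2 fell and 5 did not pass (median 0.02). GATA2, a factor of precursors, eosinophils and mast cells, rose by 1.19 from 68.1 ± 11.8 to 153 ± 5.97 TPM. Among 20 tested factors of precursors and stem cells 6 fell, 3 rose and 11 did not pass. PBX3 fell by 0.37, LMO2 by 0.34 and SOX4 by 0.30, while MYB rose by 0.44. In shNC MYB was uneven, at 212, 215 and 289 TPM, against 331 to 350 TPM in shGOT1. Of 10 tested lymphoid and erythroid factors, which are not drawn in the plot of the lists, 3 rose, 1 fell and 6 did not pass (median 0.30). The share called was 66.7% in the monocyte list, 50% in the granulocyte list, 45% in the precursor list and 40% in the lymphoid and erythroid list, against 44.6% of all tested genes.

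**Figure D4:**
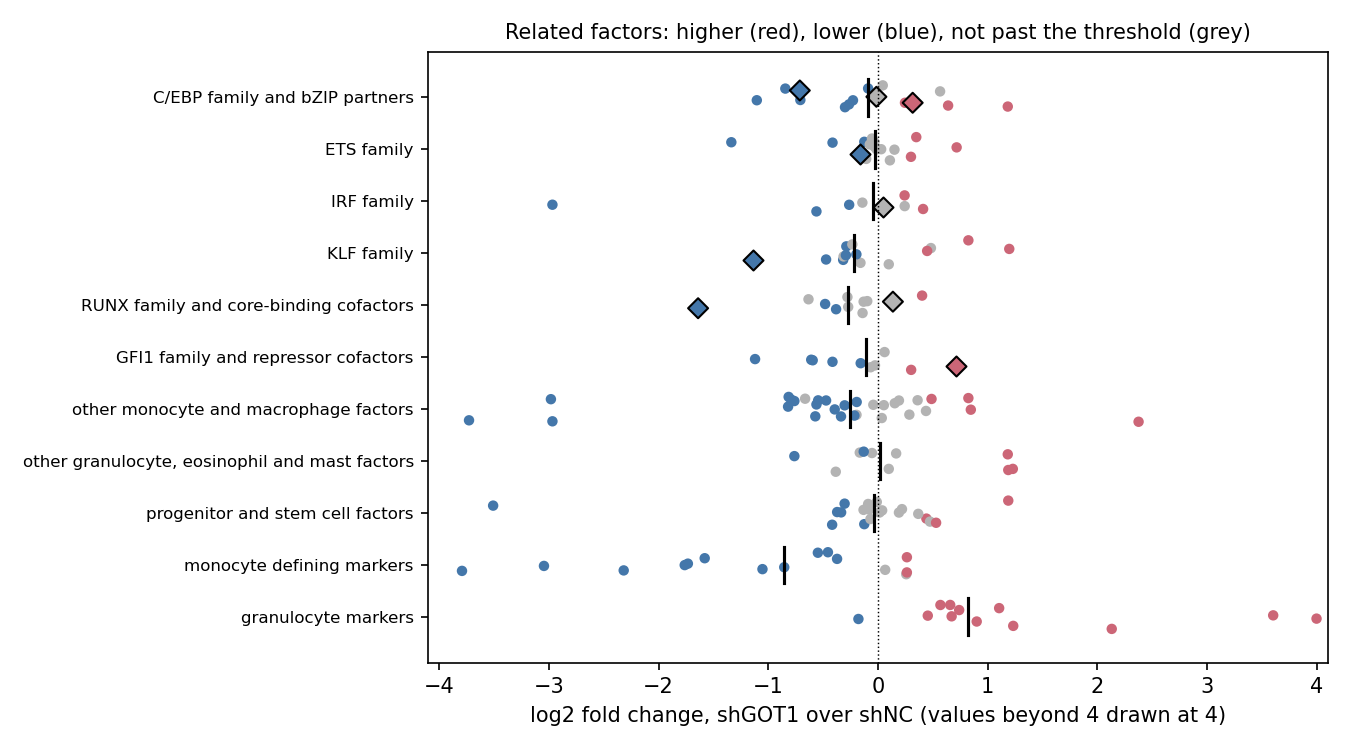
Log2 fold change of each tested gene in 11 lists of related factors and markers (points; diamonds are the 9 factors, vertical bars the list medians). Monocyte markers have a median of -0.85 and granulocyte markers of 0.82, and the 9 factor lists drawn have medians from -0.27 (RUNX list, -0.12 without shNC replicate 2) to 0.02.

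Regulators of these proteins and their known targets were described from lists as well. The lists share genes with each other and with those above, for example CEBPE, ID1, PRTN3 and LYZ. Their counts and medians are therefore not separate observations. Of 26 tested regulators of C/EBP and PU.1 activity 11 fell, 4 rose and 11 did not pass (median -0.14). TRIB1, which brings C/EBPα to degradation, rose by 0.54 (SE 0.0415, edgeR adjusted p = 0.000182), from 23.3 ± 0.997 to 37.6 ± 1.16 TPM. The kinase gene PIM1 fell by 1.41 and JUN, a partner of PU.1, by 0.68. Of 36 tested textbook targets of PU.1, C/EBP and RUNX proteins 16 rose, 14 fell and 6 did not pass (median 0.11). The neutrophil protease gene PRTN3 rose by 1.23 from 927 ± 7.17 to 2343 ± 40.8 TPM, and lysozyme (LYZ) fell by 3.05 from 552 ± 17.3 to 72.2 ± 10.1 TPM. CSF1R, the macrophage growth factor receptor, fell by 0.85 from 158 ± 1.31 to 93.1 ± 2.53 TPM. Of 20 tested targets of IRF8 and KLF4, KLF4 included, 8 fell, 5 rose and 7 did not pass (median -0.13), with CD14, which KLF4 activates, lower by 1.05. Calls made up 57.7% of the regulators, 83.3% of the PU.1, C/EBP and RUNX targets and 65% of the IRF8 and KLF4 targets. Over all tested genes the share was 44.6%.

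Genes whose profile over the 6 libraries was most like each factor were found among 10253 tested genes with at least 5 TPM in a group. Likeness was the root mean square difference in mean-centred log2 CPM, as a description. TWF2 (0.00927) and EFCAB14 (0.0121) were nearest to SPI1, and POMGNT2 (0.0186) and SPNS2 (0.021) to CEBPA. MARCO (0.0385) and INPP5K (0.0391) were nearest to CEBPB, CSTB (0.0301) and TBC1D30 (0.0367) to KLF4, and FEN1 (0.0203) and LAMB3 (0.0232) to GFI1. The nearest to RUNX1 were DNAJB6 (0.043) and UQCRQ (0.0454). RUNX2 had no close match, with RNMT at 0.236 and DPYSL2 at 0.288.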

How the data were processed

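Poly(A)-selected RNA, per the labels, was read from 3 shGOT1 and 3 shNC libraries. The authors deposited a raw count for each gene. TPM and FPKM values were also given by the authors, and the file headers name only the unit and the sample. Both units are scaled to length and depth, and the length behind them varied between libraries for some genes. FastQC, Trimmomatic, StringTie and DESeq2 are named in the submitters' processing notes; the versions, aligner, genome build and strand setting were not given in the sources used here. Coordinates are as the table gives them and are identical to GENCODE release 29 (GRCh38) for all 9 factors.

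Counts were tested with edgeR 4.0.16 in R 4.3.3 (filterByExpr, TMM, glmQLFit, glmQLFTest, 2-sided, no covariates) over 13735 genes, with Benjamini-Hochberg adjustment and a threshold of 0.05. Each SE was computed as the absolute log2 difference divided by the square root of F. The step was tested on simulated data. The members and 19 other gene lists were chosen with earlier results of these data known; of 354 list entries 354 were found. Genes named from a list had a call, separate TPM groups and at least 5 TPM in the higher group. They are among the up to 4 of these with the largest change in each direction. Not all of those were named, and the ones named were not always the largest. The 2 genes most like each factor with separate TPM groups were named as well. CEBPG, CBFB, RUNX3, GFI1B, HDAC2, SUPT3H and the markers named as under 1 TPM were added after seeing their values. Alternatives were DESeq2 1.42.0, RLE factors, other filters, the replicate block, leaving out each library, and limma 3.58.1 on log2 values of TPM or FPKM. Total counts set the counting error. Pairs of replicates had chi-square values of 18.2 to 21.5 per degree of freedom, far above sampling noise, so none was counted as a duplicate. Some listed genes are not reported here.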

Additional observations from a re-analysis of the deposited data

How the results depend on the processing

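The directions and calls of CEBPA, CEBPB, KLF4 and GFI1 were the same in all 16 other settings, and between 5 and 6 of the 9 factors passed. SPI1 did not pass with limma on log2(TPM + 1), log2(TPM + 0.1) or log2(TPM + 5) (-0.0658, -0.0659 and -0.0651), and it passed in the other settings. RUNX1 passed on those 3 scales (0.23, 0.24 and 0.22) and in no other setting. CEBPD, which passed nowhere, was positive at 0.00105 with a mean of at least 5 TPM, at 0.0875, 0.088 and 0.0856 on the 3 TPM scales and at 0.0495 on log2(FPKM + 1). Leaving out each library gave values from -0.0752 to 0.0367 for CEBPD and from -1.97 to -0.75 for RUNX2. The cause of these shifts was not tested. On log2(TPM + 1) 66.4% of the called genes were higher and in counts 49.0%.

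With the replicate block the value of RUNX2 was -1.35 and did not pass (edgeR adjusted p = 0.0773), no other call among the 9 factors changed, 5 factors passed, and 5222 genes against 6128 were called. Deviations of same-numbered libraries from their group means correlated at 0.0266, 0.000454 and -0.000605, the first being the highest of any pair. Not every library correlated best with its own number. Such correlations cannot tell whether same-numbered libraries shared a culture or a batch, and the labels do not say. Without shNC replicate 2, an alternative chosen after seeing the data for the lists, 14 of the 30 monocyte factors fell and 4 rose. At this depth GFI1B was too low to test.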
